A study of Rattus norvegicus with 8 samples.

Results

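The ribosomal protein genes of the rat dentate gyrus (DG) were measured after status epilepticus (SE), the prolonged seizure state set off by kainic acid. The genes were taken by name from the array: every non-control spot whose gene name starts with Rpl or Rps followed by a digit, or with Rplp0, Rplp1 or Rplp2, or is Rpsa, leaving out the Rps6k kinases. These were 83 of 35199 gene names on the array, 52 of the large and 31 of the small ribosomal subunit, carried by 128 probes on 137 spots. All 8 rats were adult female Sprague-Dawley rats that had been ovariectomized (OVX) and had gone through SE, induced per the sample records with 16 mg/kg of kainic acid and stopped after 5 h with pentobarbital. The 4 COS rats received oil, and the 4 CES rats received 4 doses of 2 microg of estradiol (E2) given 24 h apart, 2 of them before and 2 after SE according to the sample records. The methods of the study give another drug to end the seizures, another dose of kainic acid and E2 before SE, so the treatment is described here as the records have it. Rats without SE were not analysed here, and the comparison is of E2 with oil among OVX rats with SE. Each of the 4 arrays held 2 rats of 1 group, 1 in the Cy3 and 1 in the Cy5 channel, so that the array and the group cannot be told apart except through the spread between arrays. The question was whether these genes differed between CES and COS, how evenly, and whether they did so beyond the rest of the transcriptome.

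Cytosolic ribosomes are built from ribosomal RNA and one protein from nearly every gene of this family. The large subunit joins amino acids into protein, and the small subunit reads the messenger RNA. The messengers of ribosomal proteins begin with a run of pyrimidines, the 5′ terminal oligopyrimidine (TOP) tract, through which mTOR signalling and the protein LARP1 control their translation and stability as a group. In neurons they are made in the cell body and also carried into dendrites. The dissected DG holds granule neurons together with glia, blood vessels and immune cells, and in such tissue fewer cells of a type and less RNA per cell cannot be told apart.

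To show the shared feature that the choice of genes did not use, the 30 bases around the annotated transcript start, 15 before and 15 after it, are given for members on which the results below turn. They are RefSeq sequences of build GRCr8. Capitals mark each run of a C followed by at least 5 bases that are C or T, read on the strand of the gene.
Rplp0 (chr12:46718376-46718405, minus strand): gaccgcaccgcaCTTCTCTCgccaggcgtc
Rplp1 (chr8:71290858-71290887, minus strand): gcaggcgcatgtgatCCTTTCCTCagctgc
Rplp2 (chr1:205975906-205975935, plus strand): CCTTTCgccgccggacgccgccgaggtcgc
Rpsa (chr8:128728864-128728893, plus strand): CCTTTCCgcgctaccctggaacgggtccgt
Rpl10 (chrX:157205835-157205864, plus strand): caggcgtgggagcgtCTCTTTTCCTCTggc
Rpl38 (chr10:100200420-100200449, plus strand): cttcgttCTTTTTCCgttgttcggtgctcg
Rpl7l1 (chr9:21695703-21695732, plus strand): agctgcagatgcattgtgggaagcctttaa
Rpl36a (chrX:102059434-102059463, plus strand): ccgcctataaacttccgttgctgctctagc
Rplp1 and Rpl10 have the tract directly at the annotated start, Rplp0 across it, and Rplp2, Rpsa and Rpl38 before it, while Rpl7l1 and Rpl36a have no such run in this window. The table of start sites held 65 of the 83 names. Of these, 47 (72.3%) had such a run in the window, beside 21.2% of all 33469 windows of the same length. The median difference was -0.61 on the log2 scale over the 47 members with a tract, 25 of them called lower, and -0.70 over the 18 without, 11 of them called lower. These medians were not tested against each other. A run before the annotated start counts as a tract here, and a start annotated at another base could hide one. The 18 names without a run are therefore not shown to lack a TOP tract. In the same fit, described below, 28.3% of all quantified genes were called lower. How many members were called depended on the scale, as given below.

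All 83 ribosomal protein genes read lower in CES than in COS. The level of a gene is the background-subtracted signal of its spots over the median valid spot of the same channel, on the log2 scale, and a difference is CES minus COS. The limma fit called 49 of the 83 genes lower and 0 higher at an adjusted p under 0.05 (69 lower and 0 higher at an unadjusted p under 0.05). In the same fit 28.3% of all 21332 quantified genes were called lower and 5.80% higher. At an unadjusted p under 0.05, limma had 7785 of the 21332 lower. The median difference was -0.62 over the 52 large subunit genes, 31 of them called lower, and -0.64 over the 31 small subunit genes, 18 of them called lower. Over all quantified genes it was -0.25, so a gene in the middle of the transcriptome read lower in CES by this scale too. Taken relative to that middle, the median stood at -0.37 for the large and -0.39 for the small subunit, and 81 of the 83 members lay below the median gene, with Rpl3l and Rpl38 above it. In 45 members every COS rat was above every CES rat, which held for 19.8% of all quantified genes.

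**Figure D1:**
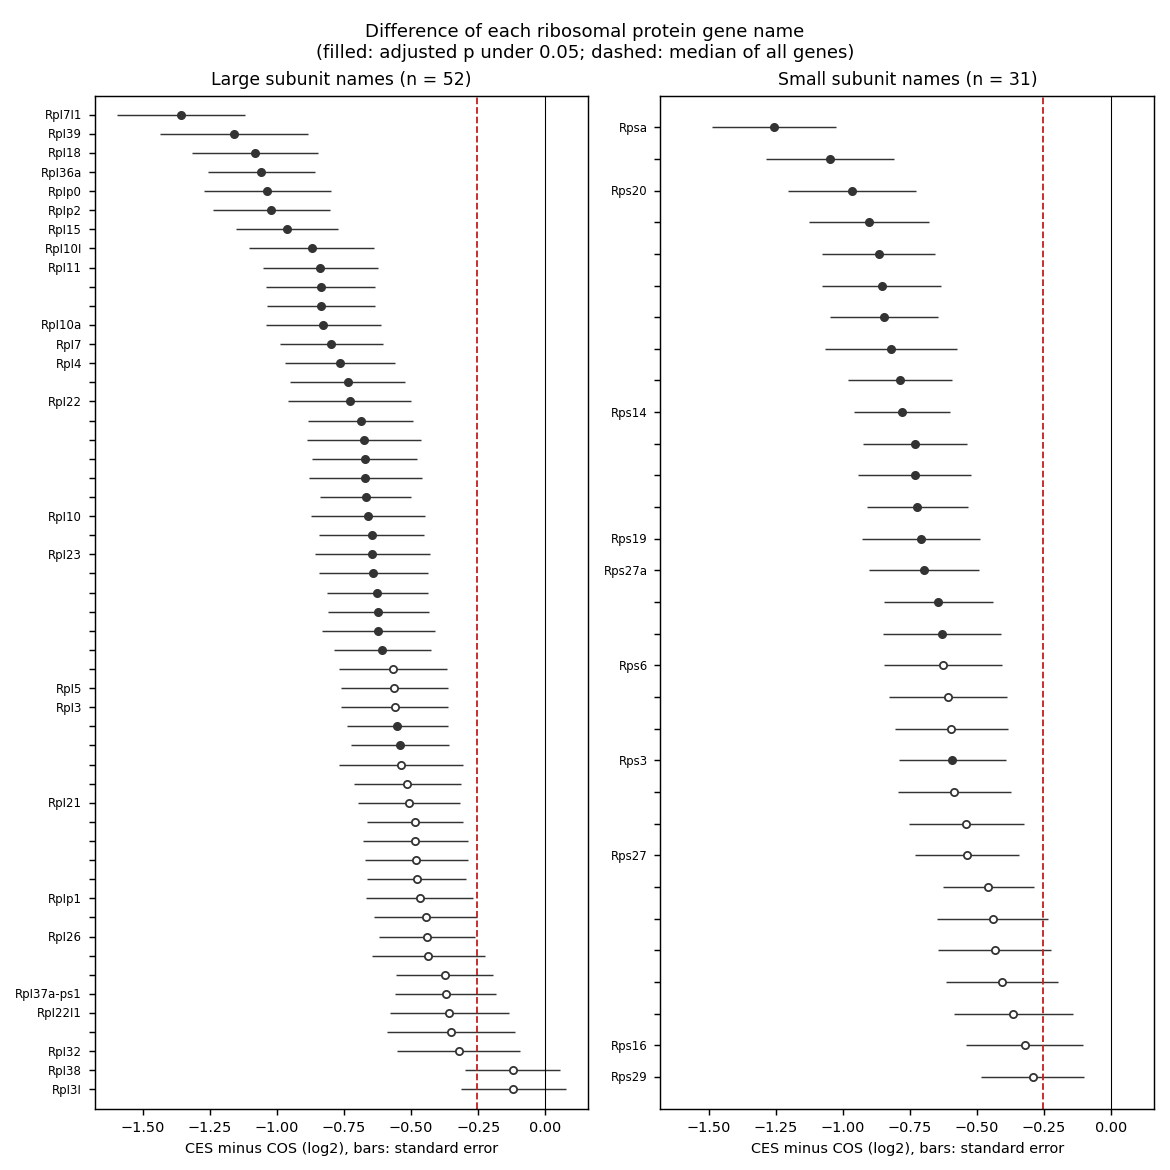
Difference between CES and COS (log2, x axis) of the 52 large and 31 small subunit names, with the standard error of the limma fit as bars and names at the members described in the text. Filled points have an adjusted p under 0.05, the black line marks 0 and the dashed line the median of all genes at -0.25; all points lie left of 0, from -1.36 for Rpl7l1 to -0.12 for Rpl3l.

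How many members were called depended on the scale, while the medians of both subunits stayed below the median gene in every setting tried. When each rat was centred on the median of its quantified genes, 6 members remained called lower (Rpl7l1, Rpsa, Rpl36a, Rpl15, Rpl18 and Rplp2) and 0 higher, 74 of the 83 still read lower, and the median over all genes moved to 0.12. On that scale 9.26% of all genes were called lower and 15.0% higher, and at an unadjusted p under 0.05 limma had 22 members lower. Unadjusted counts over all genes are given only for the reported fit, so those of members have no share beside them in other settings. The share of members called lower was thus 7.23% after centring, below the share of all genes, where it had been 59.0% against 28.3% in the reported fit. With normexp background correction limma called 0 (10 lower at an unadjusted p under 0.05), and without the filter on valid spots 6, beside 2.13% and 7.91% of all genes. After loess and Aquantile normalization 4 members were called lower, beside 8.87% of all genes, and 79 read lower. The gap between the members' medians and the all-gene median stayed between -0.37 and -0.44 with loess, quantile, centring, scaling over spots valid in all rats and the deposited log2 values, which are drawn with the other settings in the plot of calls by setting.

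**Figure D2:**
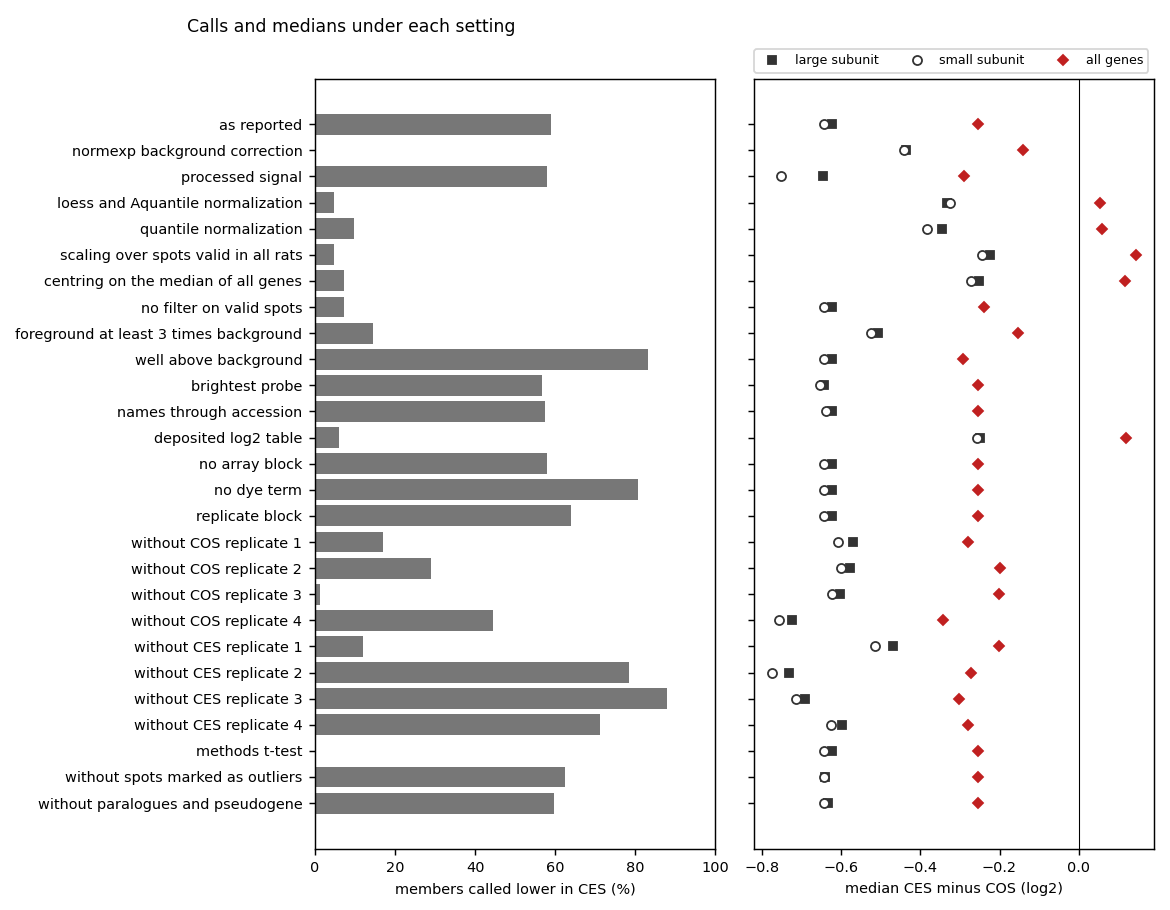
Share of members called lower in CES (percent, left) and median difference between CES and COS (log2, right) under each setting, for the large subunit (squares), the small subunit (circles) and all genes (diamonds). The share runs from 0 with normexp or, after adjustment over all genes, with the methods' t-test (56 members at an unadjusted p under 0.05) to 73 of 83 without CES replicate 3, while the 2 subunits lie left of all genes in every setting drawn. The methods' t-test called 0.00% of all genes after adjustment, and its unadjusted count over all genes is not given.

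The rats of a group did not carry the same level. The median of the 83 members was 7.31, 7.36, 7.24 and 7.09 in COS rats 1 to 4, and 6.19, 6.86, 6.70 and 6.45 in CES rats 1 to 4 (log2). Every COS rat lay above every CES rat, and the spread was wider in CES, with an SD of 0.29 against 0.12 (n = 4 each). CES 1 was the lowest, with 78 of the 83 members below their group mean, and its array mate CES 2 was the highest, with 81 above it. Relative to the median of all genes of the same rat, the members' median was 6.14 and 5.94 in the COS rats with Cy3 and 5.52 and 5.81 in the CES rats with Cy3. With Cy5 it was 6.48 and 6.48 in COS and 6.31 and 6.09 in CES. Within each dye both COS rats were above both CES rats, and across dyes the groups overlapped. Without CES 1 the fit called 10 members (12.0%) and 11.5% of all genes lower, and the medians were -0.47 for the large subunit, -0.52 for the small subunit and -0.20 for all genes. Without COS 1, COS 2, COS 3 and COS 4 the fit called 14, 24, 1 and 37 members lower (16.9%, 28.9%, 1.20% and 44.6%). The shares of all genes were 17.0%, 18.7%, 4.28% and 23.5%. Without CES 2, CES 3 and CES 4 the fit called 65, 73 and 59 members lower (78.3%, 88.0% and 71.1%). The shares of all genes were 32.7%, 32.9% and 31.4%.

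**Figure D3:**
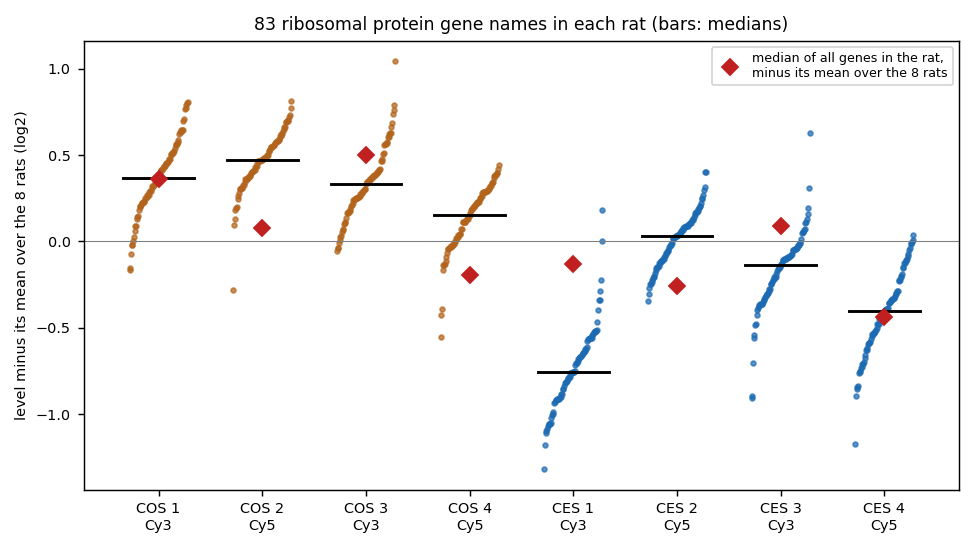
Level of each of the 83 members minus its mean over the 8 rats (log2, y axis) in each rat, sorted within the rat, with the median as a bar. Red diamonds give the median of all genes on the same terms; the COS bars lie above 0, CES 1 is lowest and CES 2 just above 0, and CES 1 is the rat whose members lie farthest under its diamond.

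Of the large subunit, the P stalk is described first. Rplp0, Rplp1 and Rplp2 form the flexible stalk that draws elongation factors to the ribosome, with Rplp0 as the base and the other 2 as its paired arms. Rplp0 read 5.05, 4.60, 5.03 and 4.35 in COS rats 1 to 4 and 3.32, 4.03, 4.15 and 3.40 in CES rats 1 to 4, with no overlap between the groups. It fell 2.05-fold, by 1.04 ± 0.24 (SE of the fit) on the log2 scale, with an adjusted p of 0.0107 in limma. Rplp2 read 7.72, 7.77, 7.72 and 7.47 in COS and 6.40, 7.29, 6.45 and 6.45 in CES. CES 2 stood well above the other CES rats, and the groups did not overlap. Rplp2 fell by 1.02 ± 0.22 (limma adjusted p = 0.00842; 0.046 after centring, where Rplp0 had 0.0651). Rplp1, measured by 1 probe on 10 spots, read 8.41, 9.09, 8.43 and 8.72 in COS and 7.49, 8.60, 8.26 and 8.41 in CES, and the groups overlapped. Its difference of -0.47 ± 0.20 missed the threshold (limma adjusted p = 0.0954; 0.670 after centring), and no test of the difference between the stalk proteins was made.

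Rpl5 and Rpl11 bind 5S ribosomal RNA and, when ribosome assembly is disturbed, the p53 regulator Mdm2. Rpl11 read 7.83, 7.94, 7.86 and 7.62 in COS and 6.41, 7.24, 7.26 and 6.99 in CES, without overlap, and fell by 0.84 ± 0.21 (limma adjusted p = 0.016; 0.0915 after centring). Rpl5 had a difference of -0.56 ± 0.20 and an adjusted p of 0.053 in limma (0.409 after centring), with CES 2 at 6.25 above COS 4 at 6.14. Its 3 probes disagreed. In the fit over probes 2 were called, at -0.73 and -0.78 (limma adjusted p = 0.0130 and 0.0139). The other, at -0.35, was not (limma adjusted p = 0.281). Among the proteins of the core and the exit tunnel, Rpl4, which lines the tunnel, fell by 0.77 ± 0.21 (limma adjusted p = 0.0196; 0.125 after centring). Rpl3, which reaches toward the catalytic centre, had -0.56 ± 0.20 (limma adjusted p = 0.0526; 0.391 after centring). Rpl39, a small protein of the tunnel wall, had the second largest fall of the large subunit. It read 7.44, 7.35, 7.20 and 6.86 in COS and 5.31, 6.29, 6.61 and 6.003 in CES. CES 1 was the lowest by a wide margin, and all CES rats were below all COS rats. The fall was 2.23-fold (-1.16 ± 0.27, limma adjusted p = 0.0122; 0.0658 after centring).

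Rpl10, which joins late in the assembly of the large subunit, fell by 0.66 ± 0.21 (limma adjusted p = 0.0364), and Rpl10a, of the L1 stalk, by 0.83 ± 0.21 (limma adjusted p = 0.0168). Rpl23, at the face that meets the small subunit, fell by 0.64 ± 0.22 (limma adjusted p = 0.0433), although CES 2 at 8.05 was above COS 1 at 7.82 and COS 3 at 7.76. Rpl22, an RNA-binding protein at the surface, fell by 0.73 ± 0.23 (limma adjusted p = 0.0346), with CES 2 at 4.85 just above COS 4 at 4.84. Rpl26, near the mouth of the tunnel, had -0.44 ± 0.18 and missed the threshold (limma adjusted p = 0.0832), though its COS rats were all above its CES rats. After centring none of these 5 genes was called, with adjusted p from 0.101 for Rpl10a to 0.734 for Rpl26.

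Rpl36a, Rpl15 and Rpl18, structural proteins of the large subunit, were called lower both in the reported fit and after centring. Rpl36a read 6.86, 6.80, 6.83 and 6.51 in COS and 5.36, 6.05, 5.86 and 5.49 in CES, a 2.08-fold fall (-1.06 ± 0.20, limma adjusted p = 0.00564; 0.0272 after centring). Rpl15, a protein deep in the large subunit, read 6.53, 6.68, 6.39 and 6.28 in COS and 5.15, 5.87, 5.60 and 5.40 in CES, a 1.95-fold fall (-0.96 ± 0.19, limma adjusted p = 0.00666; 0.032 after centring). For both genes the lowest COS rat was COS 4 and the highest CES rat CES 2, with a clear gap between them. Rpl18 fell 2.12-fold (-1.08 ± 0.23, limma adjusted p = 0.00888) and was close to the threshold after centring (0.0497).

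**Figure D4:**
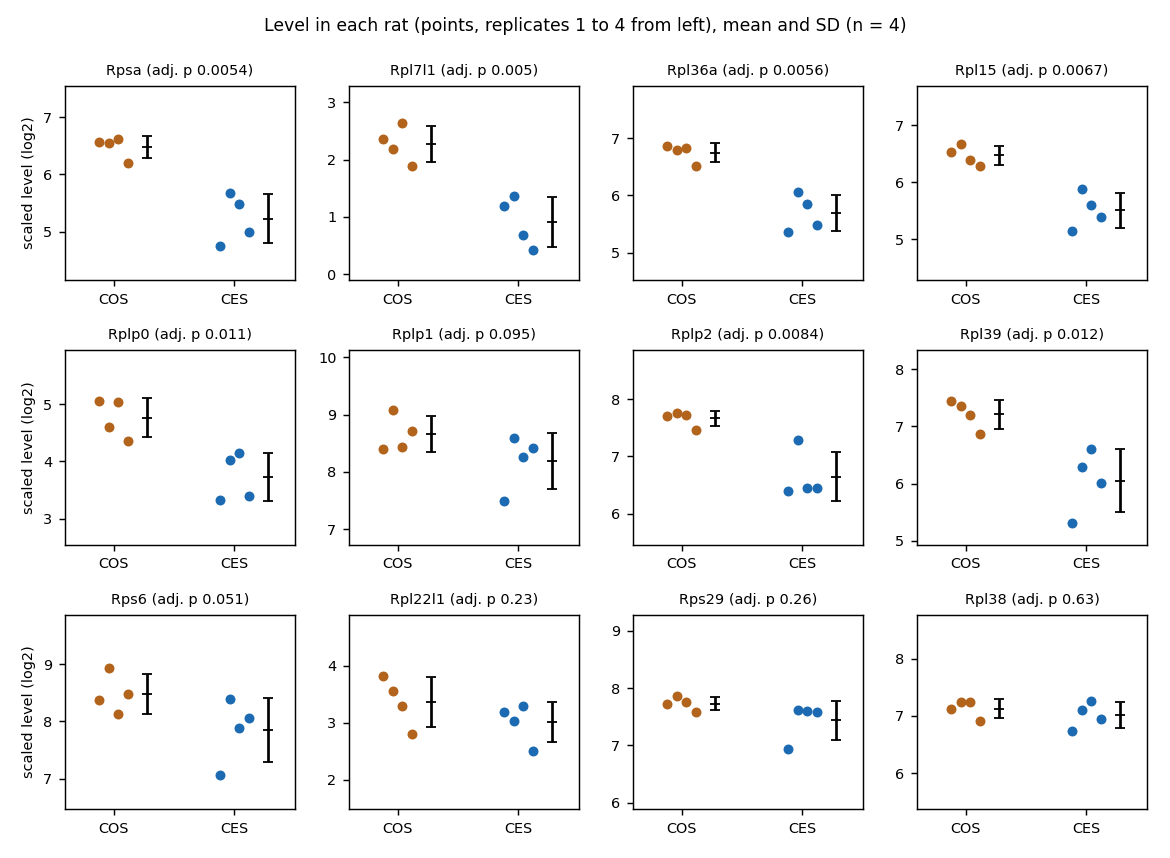
Scaled level (log2, y axis) of 12 members in the 4 COS and 4 CES rats, replicates 1 to 4 from left to right, with the group mean and SD beside the points; each panel spans the same number of log2 units. The COS and CES points are apart for Rpsa, Rpl7l1, Rpl36a, Rpl15, Rplp0, Rplp2 and Rpl39 and overlap for Rplp1, Rps6, Rpl22l1, Rps29 and Rpl38.

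Among the small subunit genes, Rpsa had the largest fall. Its protein sits near the messenger's exit and is also known as the precursor of a laminin receptor. Rpsa read 6.56, 6.55, 6.61 and 6.20 in COS and 4.74, 5.67, 5.49 and 5.00 in CES. All 4 CES rats were below all 4 COS rats, with CES 1 the lowest. The fall was 2.39-fold (-1.26 ± 0.23, limma adjusted p = 0.00538; 0.0266 after centring and 0.0327 after loess). Rps20, of the head of the subunit, fell by 0.97 ± 0.24 (limma adjusted p = 0.0141) and was not called after centring (0.0896).

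Rps6, the substrate of S6 kinase whose phosphorylation is widely used as a marker of neuronal activity and mTOR signalling, read 8.37, 8.94, 8.13 and 8.49 in COS and 7.07, 8.39, 7.89 and 8.06 in CES. CES 2 was above COS 1 and COS 3, CES 1 was far below the other CES rats, and the difference of -0.63 ± 0.22 fell just short of the threshold (limma adjusted p = 0.0506). Its phosphorylation was not measured by the array. Rps3, at the entry of the messenger channel, fell by 0.59 ± 0.20 (limma adjusted p = 0.0433). Rps14, of the platform, fell by 0.78 ± 0.18 (limma adjusted p = 0.0109), with CES rats between 5.88 and 6.31 and COS rats between 6.62 and 7.12. Rps19, the gene most often mutated in Diamond-Blackfan anaemia, fell by 0.71 ± 0.22 (limma adjusted p = 0.033). Rps27a, which is made fused to ubiquitin, fell by 0.70 ± 0.21 (limma adjusted p = 0.0272), and Rps27 had -0.54 ± 0.19 (limma adjusted p = 0.0553). None of these 6 genes was called after centring, with adjusted p from 0.077 for Rps14 to 0.436 for Rps27.

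The 5 members with the smallest differences were Rpl3l, Rpl38, Rps29, Rps16 and Rpl32. Rpl38, known for its part in the translation of Hox messengers, read 7.13, 7.25, 7.24 and 6.91 in COS and 6.73, 7.10, 7.26 and 6.95 in CES, and the groups lay over each other. Its difference of -0.12 ± 0.18 (limma adjusted p = 0.625) turned to 0.25 after centring and after loess, where it was not called either (0.175 and 0.174). The only Rpl38 probe is placed on chromosome 2, while the annotated start is on chromosome 10. Whether its signal came from the gene or from a copy elsewhere was not tested. Rps29, a small zinc-binding protein of the head, had -0.29 ± 0.19 (limma adjusted p = 0.26), with 3 CES rats between 7.59 and 7.62 and CES 1 at 6.94. Rps16 and Rpl32 both had -0.32, with limma adjusted p of 0.277 and 0.301. On the centred scale the 5 genes had differences from 0.05 to 0.25, none of them called.

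The paralogues, copies of ribosomal protein genes with narrower use, did not share 1 pattern. Rpl7l1, a paralogue of Rpl7 that acts in ribosome assembly in the nucleolus, had the largest fall of all members. It read 2.37, 2.19, 2.64 and 1.90 in COS and 1.19, 1.36, 0.68 and 0.42 in CES, with no overlap. The fall was 2.56-fold (-1.36 ± 0.24, limma adjusted p = 0.00499; 0.025 after centring), while Rpl7 itself fell by 0.80 ± 0.19 (limma adjusted p = 0.0128; 0.0677 after centring). Rpl10l, best known from testis, fell by 0.87 ± 0.23 (limma adjusted p = 0.0188; 0.0963 after centring), beside -0.66 for its partner Rpl10. Rpl22l1 had -0.36 ± 0.22 (limma adjusted p = 0.235), beside -0.73 for Rpl22, and turned to 0.01 after centring. Rpl3l, the form of muscle, had -0.12 ± 0.20 (limma adjusted p = 0.667) at levels from -1.42 to 0.08, around that of the median valid spot, and turned to 0.25 after centring. Rpl37a-ps1 carries the name of a pseudogene and had a difference of -0.37. Rpl39l and Rps27l were not found on the array under these names. Without the 5 paralogues named with an l and Rpl37a-ps1, 46 of 77 members were called lower, and the median difference was -0.64.

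Single probes were tested in a fit over 25698 probes. Of the 128 probes of the members, 126 read lower in CES and limma called 72 lower and 0 higher, where 29.0% of all probes were called lower. 34 names had several probes, all of which read lower in 32 of them, and the differences of 1 name lay apart by 0.27 at the median. After centring 10 probes were called lower and 109 read lower, and the share of all probes is given only for the reported scale. Probe sequences are given for 3 genes, because their probes differed: Rpsa and Rpl7l1, whose probes both fell, and Rpl22l1, whose probes went apart. Positions are those the files give in build rn4, on the plus strand, and a range much longer than the 60 bases of a probe spans an intron.
Rpsa first probe (chr8:125100969-125101031): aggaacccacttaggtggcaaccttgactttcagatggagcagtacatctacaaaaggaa
Rpsa second probe (chr8:125101039-125101642): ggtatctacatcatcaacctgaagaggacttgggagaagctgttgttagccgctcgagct
Rpl7l1 first probe (chr9:9396354-9397177): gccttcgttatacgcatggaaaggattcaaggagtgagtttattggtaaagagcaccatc
Rpl7l1 second probe (chr9:9398853-9400850): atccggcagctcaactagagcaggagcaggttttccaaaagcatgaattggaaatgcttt
Rpl22l1 first probe (chr2:116169913-116170112): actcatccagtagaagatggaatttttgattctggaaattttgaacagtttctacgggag
Rpl22l1 second probe (chr2:116170497-116170556): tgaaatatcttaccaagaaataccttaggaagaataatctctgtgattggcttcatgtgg
The Rpsa probes fell by 1.00 ± 0.24 and 1.36 ± 0.23 (limma adjusted p = 0.0117 and 0.00445). The Rpl7l1 probes fell by 0.84 ± 0.18 and 1.58 ± 0.31 (limma adjusted p = 0.0081 and 0.00598), and both stayed called after centring (0.0486 and 0.0323); the files tie them to different transcript records under 1 gene name. The first Rpl22l1 probe had a difference of 0.09 ± 0.25 (limma adjusted p = 0.796) and the second fell by 0.79 ± 0.24 (limma adjusted p = 0.0297; 0.196 after centring), so the value of Rpl22l1 is an average of probes that disagreed. The 2 Rpl15 probes also lay apart, at -0.37 (limma adjusted p = 0.12) and -0.99 (limma adjusted p = 0.00619), and the 7 Rpl21 probes ran from -0.82 to 0.51. The probe at 0.51 was well above background in 5 of the 8 rats, with levels from -2.65 to -0.29, while the 5 Rpl21 probes well above background in all rats read from -0.82 to -0.33. The probe at 0.51 is placed on chromosome 4 and those 5 on chromosome 12. Its sequence is close to the reverse complement of 1 of those 5, and whether it reads the Rpl21 messenger was not tested. No probe of 1 member name shared an exact run of 20 bases with a probe of another. Near matches were not sought: the Rpl10l probe and an Rpl10 probe are alike over a long stretch with single-base differences. How much of the Rpl10l signal came from Rpl10 was not tested. Ribosomal protein genes have many processed copies in the genome, and signal from a copy could not be separated from that of the gene.

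The members gave strong signals. All 137 spots passed the filter in all 8 rats, 133 were well above background in every rat, and none was saturated. By mean scaled signal, 76 of the 83 names were in the brightest 10% of quantified genes, a rank that also depends on the probe. In that 10% the median difference was -0.63 for these members and -0.19 for the 2058 other genes, of which 26.0% were called lower.

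The other genes of the translation apparatus were described from lists written from general knowledge. In the same fit 28.3% of all genes were called lower and 5.80% higher. After centring these shares were 9.26% and 15.0%. Of 58 ribosome biogenesis genes, 50 were called lower and 0 higher, with a median difference of -0.92, and 28 of them were called lower after centring. Ddx18, a nucleolar RNA helicase, fell by 1.64 ± 0.23 (limma adjusted p = 0.00375), Dkc1, the pseudouridine synthase of box H/ACA particles, by 1.38, and Polr1b, a subunit of RNA polymerase I, by 1.29. Nop10 had -0.03 and was not called. Of 37 initiation factors, 25 were called lower and 0 higher (median -0.68; 7 lower and 1 higher after centring). Eif4a1, the helicase of the cap-binding complex, fell by 1.02, while its brain-enriched relative Eif4a2 had 0.22 and was not called (limma adjusted p = 0.387). Of 13 elongation and release factors, 9 were called lower and 0 higher (median -0.73; 4 and 1 after centring). Eef1a1 fell by 0.76 (limma adjusted p = 0.0213), and Eef1a2, the form of mature neurons and muscle, had -0.08 (limma adjusted p = 0.759).

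Of 20 other messengers known to carry a TOP tract, 9 of them also in the lists of factors and 1 in that of ribosome biogenesis, 14 were called lower and 0 higher (median -0.71; 6 after centring), among them Gnb2l1, the ribosomal scaffold protein Rack1, at -1.19. Fau, which encodes a ribosomal protein fused to a ubiquitin-like protein, had -0.46 and was not called (limma adjusted p = 0.0859). Of 23 genes of S6 kinase and mTOR signalling, 11 were called lower and 1 higher, with 4 and 2 after centring. Their median was -0.32, near that of all genes. Myc, a driver of ribosome synthesis, fell by 2.73, Rps6kb1, the S6 kinase, by 0.93 and Larp1 by 1.06, while Rictor rose by 1.04 (limma adjusted p = 0.0432) and Mtor had -0.13. Of 67 genes of the mitochondrial ribosome, 12 (17.9%, beside 28.3% of all genes) were called lower and 0 higher. Their median was -0.30, or 0.07 after centring, where 4 were called lower and 5 higher, beside 9.26% and 15.0% of all genes. The difference between these lists was not tested.

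**Figure D5:**
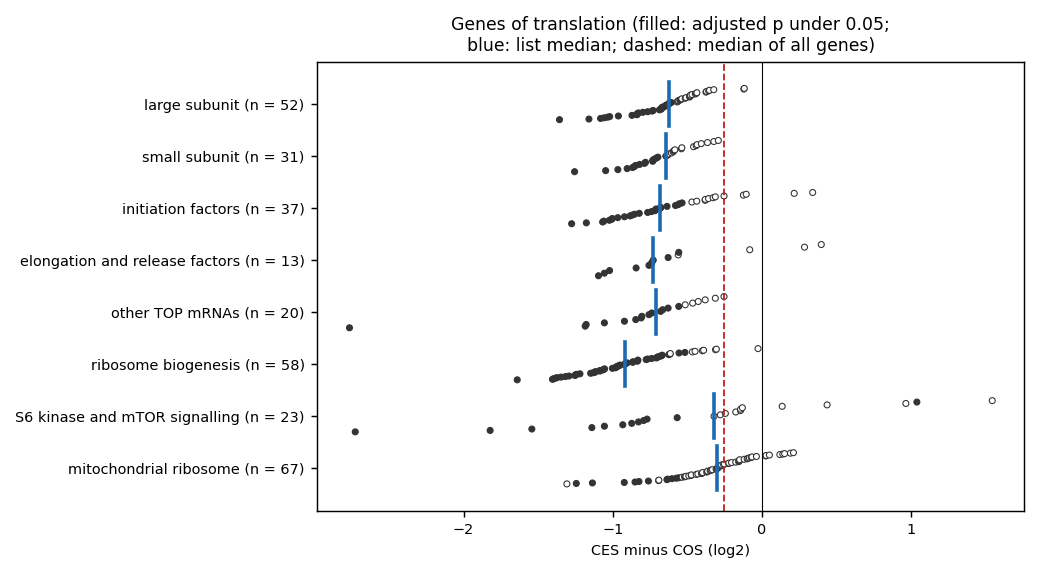
Difference between CES and COS (log2, x axis) of each gene in the subunits and the lists of translation genes (y axis), filled where the adjusted p was under 0.05, with the list median in blue, 0 as a black line and the median of all genes dashed. The blue bars of ribosome biogenesis and the factors lie left of the dashed line, and those of the mitochondrial ribosome and of S6 kinase and mTOR signalling lie close to it.

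Of the marker lists of other cells, the sums for microglia and leukocytes did not overlap between the groups, and the others did. The summed scaled signal of 4 microglia markers (Aif1, Itgam, Cx3cr1 and Csf1r) ran from 25.0 to 36.7 in COS and from 15.5 to 22.8 in CES, with Itgam and Csf1r called lower (2 of 4). That of the 3 measured leukocyte markers ran from 59.6 to 109 in COS and from 7.72 to 26.5 in CES, with Lyz2 called lower by 2.54 (1 of 3). Lyz2 was the main part of that sum in every rat, and Ptprc at -0.51 and Cd3e at 0.23 were not called. The microglia sum was 36.7, 25.1, 32.8 and 25.0 in COS rats 1 to 4 and 15.5, 20.3, 22.8 and 16.4 in CES rats 1 to 4. In CES the 2 rats with the lower sums also had the lower medians of ribosomal protein genes, while COS 2, with nearly the lowest sum in COS, had the highest median. Neuron markers (3 measured, Rbfox3 not quantified) summed to 243 to 332 in COS and 281 to 378 in CES, with Syt1 called higher. Of the granule cell markers, Calb1 was not called, Dsp was called lower and Prox1 was not quantified, with sums of 5.70 to 10.6 in COS and 5.39 to 8.98 in CES. Astrocyte markers summed to 160 to 176 in COS and 111 to 179 in CES (Aldh1l1 called higher by 1.23, and Gfap at -1.19 not called), oligodendrocyte markers to 201 to 372 and 278 to 419 (0 of 4 called), endothelial markers to 15.9 to 20.5 and 11.8 to 16.7 (Flt1 called lower). Choroid plexus markers summed to 13.3 to 615 in COS, with COS 2 the highest, and to 16.1 to 192 in CES, and blood markers to 3.32 to 18.2 and 4.28 to 7.12 (0 called in either list). In the same fit 28.3% of all genes were called lower, and 19.8% had every COS rat above every CES rat. After centring, 1 microglia and 1 leukocyte marker were called lower, and 0 granule cell and 0 endothelial markers. After loess these counts were 0, 1, 1 and 1. The shares of all genes called lower were 9.26% after centring and 8.87% after loess. On both scales 1 neuron and 1 astrocyte marker were called higher, as were 3201 (centring) and 3042 (loess) of all 21332 genes. The part of these cells in the differences of the ribosomal protein genes was not tested.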

How the data were processed

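RNA from the DG of 8 rats was hybridised to 4 2-colour Agilent arrays on 1 slide, 2 rats of a group per array. The deposited scanner files give, for each channel, spot and background intensity before normalization by the authors, a processed intensity, and flags, extracted with Agilent Feature Extraction 10.7.3.1. The authors also deposited a log2 table, in which each column is the log2 median signal minus background less a constant (column median 0); all its columns belong to the 8 rats. A spot was valid at a mean signal of at least 2 times the local background, and 27642 of 43379 spots were valid in all 8 rats. Their background-subtracted signal was scaled to the median valid spot of that channel, averaged over the spots of a gene name and taken to log2, which gave 21332 genes. This follows the study's methods except for their iterative renormalization. Valid spots per rat ran from 30690 to 38553. The number of arrays limits the precision, and the median standard error was 0.20. Replicates are separate rats per the labels.

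CES and COS were compared in limma 3.58.1 (R 4.3.3, statmod 1.5.0, version 1.17.8 of data.table), two-sided, with a dye term and a random array effect (consensus correlation -0.01); p-values were adjusted over all genes by Benjamini-Hochberg and read at 0.05. Python 3.11.15, pandas 2.3.3, numpy 2.4.6 and matplotlib 3.10.9 read the sequences and drew the plots. Same-numbered COS and CES rats share a dye, and their deviations from the group means correlated at 0.21 to 0.34 over genes; with the dye removed the range was -0.28 to 0.08. The members, the lists and the tests were chosen with earlier results of these data known. Named genes are members of defined role and paralogues, the 10 largest falls among called members (none rose), and the 5 members of smallest difference; genes of other lists and further probes were picked after their values were seen. Alternatives covered background correction, signal, normalization, filters, model terms, naming, the methods' t-test, the deposited table and leaving out each rat. Leaving out spots marked as outliers (15 of the 137) was added after seeing the data. Gene names are those of the files; 113 of the 128 member probes had an accession in the reference table. Values of 1 member and of 1 gene of another list are not reported here by name.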

Additional observations from a re-analysis of the deposited data

Results flagged for a closer look

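In 5 of the 70 groups of 4 values examined, 1 rat stood far from the other 3, and chance flags about 1 group in 20. In COS it was COS 4 each time, the lowest rat for Rplp2 (7.47), Rpl3 (5.81) and Rpsa (6.20). In CES, rat 2 was the highest for Rplp2 (7.29) and rat 1 the lowest for Rps29 (6.94). COS 4 and CES 1 are the rats of their groups with the lowest median over the members, and CES 2 is the highest of its group.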

How the results depend on the processing

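The count of 49 members called lower became 0 with normexp background correction (10 at an unadjusted p under 0.05), 4 with loess and Aquantile normalization, 8 with quantile normalization, 4 with scaling over spots valid in all rats, 6 with centring, 6 with no filter on valid spots, 12 when spots had to reach 3 times background, 5 with the deposited log2 table and 0 with the methods' t-test (56 at an unadjusted p under 0.05); leaving out each rat gave 1 to 73. No alternative called a member higher. After adjustment the methods' t-test called 0.00% of all genes lower as well. After quantile normalization 9.64% of members and 10.4% of all genes were called lower. With scaling over spots valid in all rats these shares were 4.82% and 8.05%. They were 14.5% and 16.9% at 3 times background, and 6.02% and 9.17% with the deposited log2 values. The members' share was the larger, among other settings, with the processed intensity (57.8% and 26.3%) and with spots well above background (83.1% and 39.3%). Median differences of the large and the small subunit were -0.33 and -0.33 (loess), -0.34 and -0.38 (quantile), -0.22 and -0.24 (spots valid in all rats), -0.25 and -0.27 (centring), -0.25 and -0.26 (deposited table), with the all-gene median at 0.06, 0.06, 0.15, 0.12 and 0.12; leaving out each rat gave -0.73 to -0.47 and -0.77 to -0.52. With the replicate block, 53 members (63.9%, beside 28.7% of all genes) were called lower, 5 gained and 1 lost. Called lower after centring and after loess were 7 and 6 initiation factors, 4 and 4 elongation and release factors, 6 and 5 other TOP messengers and 28 and 26 biogenesis genes. So were 4 and 4 genes of S6 kinase and mTOR signalling, 4 and 4 of the mitochondrial ribosome, and 10 and 6 member probes. Of all genes, 9.26% and 8.87% were called lower on these scales. Called higher were 1 and 2 initiation factors, 1 and 1 elongation and release factors, and 0 other TOP messengers and biogenesis genes. Also called higher were 2 and 1 genes of S6 kinase and mTOR signalling and 5 and 4 of the mitochondrial ribosome. Of all 21332 genes, 3201 and 3042 were called higher.

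The sign turned, with no call, for 6 named genes. With loess, quantile, scaling over spots valid in all rats, centring and the deposited log2 values, in this order, Rpl3l had 0.25, 0.26, 0.28, 0.25 and 0.28, Rpl38 had 0.25, 0.21, 0.28, 0.25 and 0.29, and Rps29 had 0.033, 0.025, 0.11, 0.080 and 0.084. Rpl38 also had 0.062 with normexp, and -0.22 to 0.0007 leaving out each rat. Rps16 had 0.010 with loess and 0.077, 0.049 and 0.061 with the last 3 of these settings, in which Rpl32 had 0.077, 0.049 and 0.055 and Rpl22l1 0.042, 0.015 and 0.0028. The cause was not tested. All 137 member spots were valid in all 8 rats.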
